A study of Mus musculus with 7 samples.

Results

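The genes described here are 183 nuclear protein-coding genes of the mitochondrial ribosome and the respiratory chain, out of 21883 nuclear protein-coding genes in the RefSeq table of mouse build GRCm38.p6. They were taken by symbol, as every gene whose name begins with Mrpl, Mrps, Nduf, Uqcr, Atp5 or Cox followed by a digit, together with Sdha, Sdhb, Sdhc and Sdhd. No measured value entered the choice. By symbol they fall into 9 groups, which are 49 genes of the large and 29 of the small mitoribosomal subunit, 41 complex I subunits, 8 complex I assembly factors, 4 genes of complex II, 8 of complex III, 18 complex IV subunits, 9 complex IV assembly factors and 17 genes of complex V.

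Accessibility of chromatin was profiled by ATAC-seq, where a transposase cuts open DNA and tags the fragments for sequencing. The cells were CD15-positive progenitors sorted by FACS from the embryonic forebrain, dorsal telencephalon, of CD-1 mice at E14.5, where CD15 is a surface carbohydrate of neural stem and progenitor cells. One group is wild-type, with 3 libraries, and the other is L3mbtl3 -/-, with 4 libraries, called knockout from here on. L3mbtl3 encodes a protein that reads methylated lysines on histones and other proteins. The labels give no litter, sex or number of embryos for any library, do not say whether libraries of a genotype came from separate embryos, and list heterozygous cells in a growth protocol shared by all libraries, although no library carries that genotype.

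The mitochondrial ribosome translates the few proteins still encoded in mitochondrial DNA, all of them parts of the respiratory chain or of the ATP synthase. Complexes I and II pass electrons from NADH and succinate to ubiquinone, complex III passes them to cytochrome c, complex IV to oxygen, and complex V uses the proton gradient built by I, III and IV to make ATP. Nearly all other subunits, every mitoribosomal protein and the factors that assemble the complexes are made from nuclear genes, most of which are expressed in every tissue from CpG-rich promoters. Neural progenitors are known to lean on glycolysis more than the neurons they produce.

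A gene was counted as called in a library where that library's peak list held a peak within 1 kb of either end of the gene's span. The lists hold peaks and no reads, so a missing call says only that no peak passed the threshold, and the sequencing depth is unknown. Their lengths ran from 3366 peaks in knockout 3 to 17362 in knockout 4, and every count below moves with that length. Knockout 4 stands apart in this respect, so several of the counts that rest on it are also given without it. The targeted gene, L3mbtl3, had no peak at an end in any of the 7 libraries, which says nothing about its deletion. Of the markers used to look at the labelled cell type, 6 of 14 progenitor and dorsal forebrain genes were called in at least 1 library, among them Fabp7 in 3 and Emx2 in 2, while Fut4, Pax6, Nes and Vim were not. Among markers of other cells, 2 of 6 neuronal, 1 of 7 ventral forebrain and 1 of 6 meningeal genes were called, and 0 of 5 endothelial and 0 of 7 microglial or blood genes. The ventral forebrain gene was Gad2, called in 4 libraries, the most of any marker listed, and the meningeal gene was Dcn, called in 2. Over all genes 23.6% were called in at least 1 library. With so few marker genes called, the peak lists can neither establish nor contradict the labelled cell type.

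In every library the mitochondrial genes were called more often than protein-coding genes at large. Among the wild-type libraries 23, 31 and 21 of the 183 genes had a peak at an end, which is 12.6%, 16.9% and 11.5%, where all genes stood at 7.4%, 11.1% and 6.63%. In the knockout libraries the counts were 25, 17, 11 and 57 genes, or 13.7%, 9.29%, 6.01% and 31.1%, against 8.75%, 6.11%, 3.56% and 18% of all genes. The share among the mitochondrial genes was thus 1.52 to 1.73 times that among all genes. Its mean was 1.65 ± 0.113 times in wild-type (SD, n = 3) and 1.63 ± 0.101 times in knockout libraries (SD, n = 4). The shortest and the longest list, knockout 3 and 4, gave ratios of 1.69 and 1.73.

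**Figure D1:**
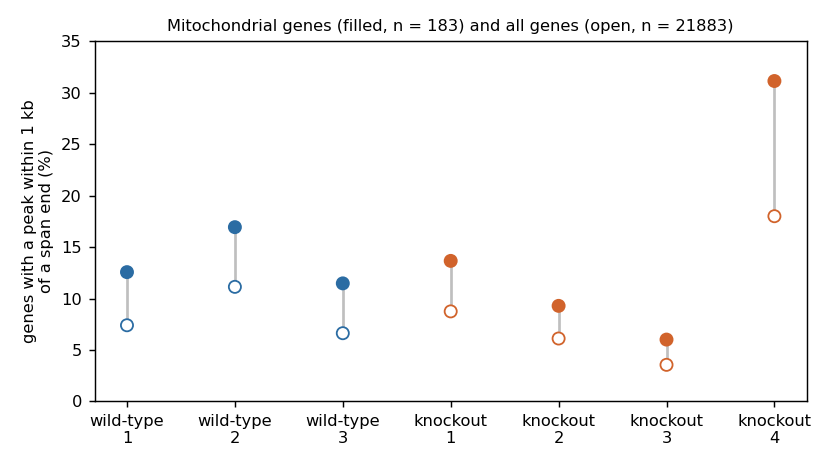
Share of genes with a peak within 1 kb of a span end in each of the 7 libraries, in percent, for the 183 mitochondrial genes (filled circles) and all 21883 protein-coding genes (open circles), wild-type in blue and knockout in orange. The filled circle lies above the open one in all 7 libraries, from 6.01% over 3.56% in knockout 3 to 31.1% over 18% in knockout 4.

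The excess shrank as more libraries were required to call a gene. At least 1 library called 78 of the 183 genes (42.6%), against 23.6% of all genes, and 105 were called in none. At least 4 of the 7 libraries called 18 (9.84%), against 6.52% of all genes. At 6 or more libraries the shares met, with 5 mitochondrial genes (2.73%) against 2.7% of all genes, and just 1 gene, Cox7c, was called in all 7 (0.546% against 1.13%). Of the 36 genes called in a single library, 23 (63.9%) were called by knockout 4 alone, and the same library accounted for 61.0% of such calls over all genes. Without knockout 4, 55 of the 183 genes were called at least once and 12 were called in at least 4 libraries (6.56%, against 4.72% of all genes). Of the 5167 genes called at least once over all genes, 1317 were called by knockout 4 alone.

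**Figure D2:**
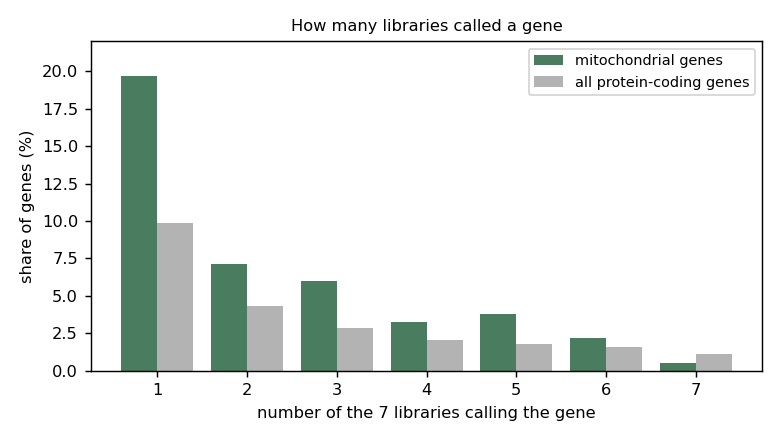
Share of genes, in percent, called in exactly 1 to 7 of the 7 libraries, for the mitochondrial genes (green) and all protein-coding genes (grey), with genes called in none left out. The green bar is the taller one at 1 to 6 libraries, for example 19.7% over 9.86% at 1 library, and the shorter one at 7 libraries, 0.546% under 1.13%.

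The 5 genes called in 6 or 7 libraries belong to different assemblies. Cox7c encodes a small structural subunit of complex IV and Ndufaf7 a methyltransferase needed to build complex I. Mrps14 and Mrpl32 encode proteins of the small and large mitoribosomal subunits, and the last is Atp5j, which encodes coupling factor 6 of the stator stalk of complex V. Cox7c was called in all libraries, and the other 4 were called in every library except knockout 3, the one with the shortest list. Their peaks sat on the annotated transcription start or within 53 bp of it. Their promoters are printed below from RefSeq (GRCm38.p6), from 250 bases before the start to 50 bases after it, on the gene's own strand and 5′ to 3′, so that the sequence under these peaks can be read. Capitals mark matches on either strand to 5 motifs common in promoters of respiratory genes, which are NRF1 (GCGCATGCG), the ETS family (CCGGAAG), YY1 (AAGATGGC), SP1/KLF (GGGCGG) and the CCAAT box (CCAAT). For Atp5j the second of 2 annotated starts is shown, since its peaks lie there. The windows are chr13:86046746-86047045 (minus strand) for Cox7c, chr17:78936885-78937184 (plus) for Ndufaf7, chr1:160194965-160195264 (plus) for Mrps14, chr13:14612988-14613287 (minus) for Mrpl32 and chr16:84834927-84835226 (minus) for Atp5j.
Cox7c: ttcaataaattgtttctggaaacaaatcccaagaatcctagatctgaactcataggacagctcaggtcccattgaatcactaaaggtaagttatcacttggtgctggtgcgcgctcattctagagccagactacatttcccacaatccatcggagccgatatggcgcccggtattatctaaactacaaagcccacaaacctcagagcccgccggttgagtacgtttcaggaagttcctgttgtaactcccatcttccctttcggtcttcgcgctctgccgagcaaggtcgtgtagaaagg
Ndufaf7: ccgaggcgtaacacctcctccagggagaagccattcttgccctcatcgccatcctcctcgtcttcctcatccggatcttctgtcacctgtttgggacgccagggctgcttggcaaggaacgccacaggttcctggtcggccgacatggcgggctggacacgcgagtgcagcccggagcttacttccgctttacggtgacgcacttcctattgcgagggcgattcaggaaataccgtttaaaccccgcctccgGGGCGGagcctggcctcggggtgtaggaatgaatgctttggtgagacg
Mrps14: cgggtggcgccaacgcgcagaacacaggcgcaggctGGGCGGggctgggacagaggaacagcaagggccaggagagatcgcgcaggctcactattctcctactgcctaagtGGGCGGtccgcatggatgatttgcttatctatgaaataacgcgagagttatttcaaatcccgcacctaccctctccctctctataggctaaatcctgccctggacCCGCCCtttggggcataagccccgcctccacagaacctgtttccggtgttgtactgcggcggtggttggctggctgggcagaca
Mrpl32: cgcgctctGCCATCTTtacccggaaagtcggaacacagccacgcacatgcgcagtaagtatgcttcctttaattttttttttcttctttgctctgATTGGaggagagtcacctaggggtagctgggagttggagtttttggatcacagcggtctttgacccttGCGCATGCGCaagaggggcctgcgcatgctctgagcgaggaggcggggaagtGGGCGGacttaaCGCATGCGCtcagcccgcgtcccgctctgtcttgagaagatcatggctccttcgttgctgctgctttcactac
Atp5j: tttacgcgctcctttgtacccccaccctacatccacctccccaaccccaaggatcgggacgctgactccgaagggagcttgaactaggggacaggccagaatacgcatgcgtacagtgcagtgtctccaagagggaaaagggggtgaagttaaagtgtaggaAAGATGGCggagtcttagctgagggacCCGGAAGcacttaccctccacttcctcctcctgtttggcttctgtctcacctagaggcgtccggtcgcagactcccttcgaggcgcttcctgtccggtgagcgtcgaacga

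None of the 5 motifs, as exact letters, was found in all 5 sequences. Looser forms of them and other motifs were not searched. The sequence of Cox7c holds none of the exact matches, with 14 CpG dinucleotides in its 300 bases. The Ndufaf7 window has an SP1/KLF match at +2 and Mrps14 has 3 of them at −214, −139 and −34, where positions give the first base of a match and the start is 0. In the Mrpl32 window there are NRF1 matches at −87, −86 and −23, of which the first pair overlap on opposite strands, beside matches for YY1 at −242, the CCAAT box at −155 and SP1/KLF at −35. The second Atp5j start has a YY1 match at −88 and an ETS match at −61, and neither motif overlaps the other. These are matches of letters, and nothing in the data measured binding to them.

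Cox7c (chromosome 13, 86044798 to 86046795, minus strand) had its peak over the start in all 7 libraries. The peaks together spanned chr13:86046731-86046962 and had 144 bp in common, from 86046785 to 86046928. They began 133 to 167 bp before the start and ended 10 to 64 bp after it. The deposited fold enrichment, which is the authors' value for each peak over the background of its own library, was 6.08, 8.85 and 5.92 in the wild-type libraries and 10.1, 7.58, 5.22 and 10.2 in the knockout libraries. The highest values came from knockout 1 and 4 and the lowest from knockout 3, so that the range of the knockouts enclosed that of the wild types. By −log10 q the peak ranked high in each list, at percentiles 89.5, 99.1 and 93.3 for the wild-type libraries and 99.5, 97.2, 79.1 and 99.7 for the knockout ones.

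At Ndufaf7 (chromosome 17, 78937106 to 78948052, plus strand) the folds were 6.45, 7.90 and 5.08 in wild-type libraries and 6.35, 5.22 and 6.66 in knockout 1, 2 and 4. The genotypes overlapped here too. Its peaks began 51 to 96 bp before the start at 78937135, ended 30 to 152 bp after it, and shared 82 bp. The same peak lies at the end of Cebpz, so the call cannot be given to either gene alone. Mrps14 (chromosome 1, 160195215 to 160201186, plus strand) has no such neighbour, and its folds were 5.36, 5.30 and 5.19 in wild-type and 5.18, 6.35 and 5.70 in knockout 1, 2 and 4. Mrps14 had the widest peaks of the 5, at 215 to 350 bp, and they lay mostly before the start, beginning 195 to 295 bp ahead of it.

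Mrpl32 (chromosome 13, 14610301 to 14613037, minus strand) showed the least regular outline. In wild-type 1, wild-type 3 and knockout 1 its peak stopped 53, 52 and 39 bp short of the start, while in wild-type 2, knockout 2 and knockout 4 it ran 49, 23 and 23 bp past it. Folds were 5.35, 7.85 and 4.45 in wild-type and 7.98, 4.80 and 7.45 in knockout libraries. Each genotype thus had high and low values. This interval also borders Psma2, which encodes a subunit of the proteasome core. Atp5j (chromosome 16, 84827871 to 84835857, minus strand) had the weakest peaks, with folds of 5.93, 4.55 and 4.31 in wild-type and 5.10, 4.62 and 4.63 in knockout libraries, and it kept 1 of its 6 calls when every list was shortened to its 3366 strongest peaks. Its peaks lay 753 to 804 bp inside the span, at the start at 84834976, and are shared with Gabpa, the gene of an ETS factor that is itself a regulator of respiratory genes.

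**Figure D3:**
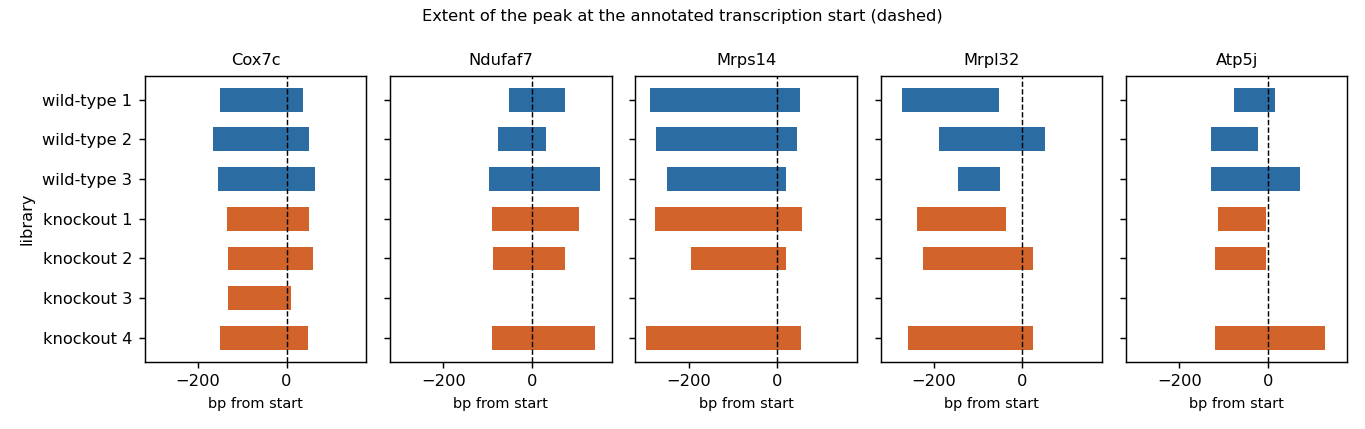
Extent of the peak around the annotated transcription start (dashed line, 0 bp, negative values upstream) in each library for the 5 genes called in 6 or 7 libraries, wild-type in blue and knockout in orange. An empty row is a library with no peak, which is knockout 3 for all but Cox7c, and the bars of Cox7c reach from at most −167 to 64 bp.

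Among the mitoribosomal genes, 17 of 49 for the large (34.7%) and 10 of 29 for the small subunit (34.5%) were called in at least 1 library. Over all genes the share was 23.6%, which is also the base for such counts in the groups below. Over the 7 libraries the large subunit averaged 11.4% ± 8.15 (SD, n = 7) and the small subunit 12.8% ± 6.81 (SD, n = 7), with ranges of 0 to 26.5% and 3.45 to 24.1%. Each was above the share of all genes in 6 of 7 libraries. In the large subunit Mrpl32 was followed by Mrpl50 in 5 libraries, and by Mrpl17 and Mrpl47 in 4. In the small subunit Mrps14 was followed by Mrps12, whose product lies at the decoding centre, in 5 libraries, and by Mrps9 in 4. Knockout 3 called no gene of the large subunit at all, although it called 2 of the small one, Mrps9 and Mrps30.

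Mrps12 (chromosome 7, 28739641 to 28741821, minus strand) was called in all 3 wild-type libraries with folds of 6.20, 4.83 and 5.11, and in knockout 1 and 4 with 6.09 and 4.92. The genotypes overlapped. Its peak at chr7:28741786-28741988 also lies at the end of Sars2, which encodes the mitochondrial seryl-tRNA synthetase, and the call cannot be given to either gene alone. The peak of Mrpl47 is shared with a complex I gene, Ndufb5, on the opposite strand. Both were called in wild-type 1 and 2 and knockout 1 and 4, with folds of 4.63, 4.95, 4.15 and 4.79, and the common part was chr3:32736872-32737008. Of the 3 pairs of these mitochondrial genes whose ends lie within 1 kb of each other it was the pair with calls. Mrpl36 with Ndufs6 and Mrpl46 with Mrps11 had none.

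Complex I subunits had calls at 19 of 41 genes, with a mean of 14.6% ± 8.21 (SD, n = 7) and a range of 7.32 to 26.8%. The accessory subunits Ndufa5 and Ndufb11 were called in 5 libraries each and Ndufb5 and Ndufb6 in 4. Among the core subunits Ndufv1, which belongs to the NADH-oxidising module, was called in 3 and Ndufs8, an iron-sulfur subunit, in 2. Ndufb6 differed from the other genes called in 4 or more libraries whose strand is known. Its peaks, at chr4:40269797-40269986, lay up to 655 bp beyond the far end of the gene and within 1 kb of an end of Smim27 and of Topors, and none lay at its own start. Complex I assembly factors had the highest mean of the 9 groups, 26.8% ± 15.2 (SD, n = 7), over just 8 genes. Calls came from 4 of them, namely Ndufaf7, Ndufaf5 in 4 libraries, Ndufaf8 in 3 and Ndufaf2 in 2. Ndufaf5 hydroxylates a core subunit during assembly, and Ndufaf8 is its partner. All peaks of these 4 genes also lie at the end of a gene outside the 183, and when such shared peaks were left out the mean of the group was 0.

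Complexes II and III gave few calls outside knockout 4. For complex II, Sdha, the flavoprotein subunit, was called in knockout 1, and the iron-sulfur subunit gene Sdhb and the membrane anchor gene Sdhc in knockout 4, each with 1 peak. The fourth gene, Sdhd, had no call. Complex II was above the share of all genes in 2 of 7 libraries, with a mean of 10.7% ± 19.7 (SD, n = 7), or 4.17% without knockout 4. For complex III, with a mean of 17.9% ± 26.9 (SD, n = 7), or 8.33% without knockout 4, knockout 4 called 6 of 8 genes (75%), the other 3 knockout libraries none, and the wild-type libraries 2, 1 and 1. Uqcrb was called in wild-type 1 and 2 and knockout 4 with folds of 5.07, 3.98 and 4.21, the core protein gene Uqcrc1 in wild-type 3 and knockout 4 with 3.65 and 5.91, and the hinge protein gene Uqcrh in wild-type 1 and knockout 4 with 4.00 and 4.75. Uqcrc2, Uqcrq and Uqcr10 were called in knockout 4 alone.

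Complex IV subunits had the lowest mean of all groups over the 7 libraries, 9.52% ± 6.96 (SD, n = 7), with 5 of 18 genes called. All genes averaged 8.80%. Without knockout 4 the mean of this group was 7.41%, above the 4.17% of complex II, so the lowest rank rests on that library. Apart from Cox7c, Cox7a2l, a gene linked to supercomplex assembly, was called in 2 libraries and Cox6a1, Cox7b and Cox8a in 1 each. Cox7c alone made up the whole count of this group in 5 of the 7 libraries, where the share was 5.56%. Complex IV assembly factors had calls at 3 of 9 genes, with a mean of 17.5% ± 8.74 (SD, n = 7). Cox18, which inserts part of a mitochondrially encoded subunit into the inner membrane, was called in 5 libraries, and the copper chaperone gene Cox17 and Cox14 in 3 each. The folds at Cox17 reached 7.65, the highest value among genes called in 3 libraries. The peaks of Cox18 lay 341 to 479 bp inside its span.

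Complex V had calls at 11 of 17 genes. The mean was 22.7% ± 13.3 (SD, n = 7), and it was above the share of all genes in 7 of 7 libraries, as were the complex I assembly factors. Atp5b, the catalytic beta subunit, was called in all 3 wild-type libraries with folds of 4.48, 5.25 and 5.95 and in knockout 2 and 4 with 4.51 and 6.34, so the genotypes overlapped. Atp5g1, which encodes the ring-forming c subunit, was called in wild-type 2 and all 4 knockout libraries with folds of 4.54 and then 4.45, 5.44, 6.59 and 4.90. Neither of them shares its peak with another gene. Atp5pb, a stator subunit, was called in wild-type 1 and knockout 2 and 4. The ranges of all 9 groups over the libraries overlapped, and in the groups of 18 genes or fewer a single gene moves the share by 5.56 to 25 percentage points.

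**Figure D4:**
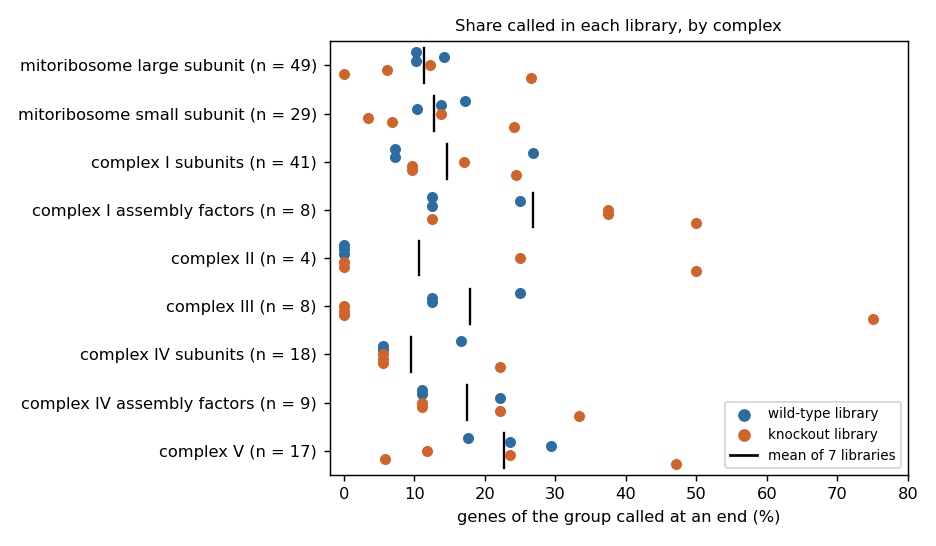
Share of the genes of each group called at an end, in percent, with 1 point per library (wild-type blue, knockout orange, points shifted vertically where they coincide) and a black line at the mean of 7 libraries. Means run from 9.52% for complex IV subunits to 26.8% for complex I assembly factors, the points of all groups overlap, and the point at 75% is complex III in knockout 4.

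Several subunits come in pairs of a widely expressed isoform and one restricted to muscle, testis or other tissues. None of the 7 restricted isoforms, Cox4i2, Cox6a2, Cox6b2, Cox7a1, Cox7b2, Cox8b and Ndufa4l2, had a call in any library. Of the 7 widely expressed partners, 4 had calls. They are Ndufa4 in wild-type 2 and knockout 2, Cox6a1 and Cox7b in knockout 4, and Cox8a in wild-type 1, whereas Cox4i1, Cox6b1 and Cox7a2 had none. Over all genes 23.6% had a call in at least 1 library, and 3 of these 4 partners were called in a single library, so a contrast over 7 pairs is a description only. Ndufa4 is kept with complex I by its symbol, although its product is known as a part of complex IV.

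By genotype the mitochondrial genes differed by less than the spread between libraries. The share called was 13.7% ± 2.89 in wild-type (SD, n = 3) and 15.0% ± 11.2 in knockout libraries (SD, n = 4), a difference of 1.37 percentage points. Without knockout 4 it was −4.01 points, so the direction of this difference rests on that library. All genes gave 8.39% ± 2.41 and 9.11% ± 6.30, a difference of 0.716 points. Of the 77 mitochondrial genes with unequal shares of calling libraries, 41 leaned to knockout (22.4% of the 183, against 12.4% of all genes) and 36 to wild-type (19.7%, against 10.1% of all genes). The part that leaned to knockout, 53.2%, was near the 55.3% of all genes with unequal shares. The 41 include 23 genes called by knockout 4 alone, and the 2719 of all genes that leaned to knockout include 1317 such genes. The direction of lean thus rests largely on that library, and the split was not computed without it.

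By group, the genotypes compared as follows. Large-subunit genes averaged 11.6% ± 2.36 in wild-type and 11.2% ± 11.4 in knockout libraries, small-subunit genes 13.8% ± 3.45 and 12.1% ± 9.12, complex I subunits 13.8% ± 11.3 and 15.2% ± 7.01, and complex V genes 23.5% ± 5.88 and 22.1% ± 18.2 (SD, n = 3 and n = 4). In these 4 groups the genotype means differed by less than the SD of either genotype. Without knockout 4 the knockout mean was lower than the wild-type mean in each of them, with differences of −5.44, −5.75, −1.63 and −9.80 points, so the size of these differences, and for complex I subunits the direction, rests on that library. Complex II stood at 0 in all 3 wild-type libraries and at 18.8% ± 23.9 in knockout libraries (SD, n = 4), a difference of 18.8 points, or 8.33 without knockout 4. Complex III differed by 2.08 points, or −16.7 without knockout 4, a change of direction. For the 8 complex I assembly factors the wild-type mean was 16.7% ± 7.22 (SD, n = 3) and the knockout mean 34.4% ± 15.7 (SD, n = 4), a difference of 17.7 points, or 12.5 without knockout 4. The values of the libraries overlapped there as well, since wild-type 1, wild-type 3 and knockout 3 each called 1 of the 8.

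For single genes a two-sided Fisher exact test of the calls, run over all 21883 genes, left 0 genes and 0 mitochondrial genes with a Benjamini-Hochberg adjusted p under 0.05 (0% of all genes). At an unadjusted p under 0.05 it gave 10 genes (0.0457%), none of them mitochondrial. With 3 libraries against 4 the exact test cannot go below 0.0286, so no gene could have passed the adjustment. The test compares counts of calling libraries and takes no account of the length of each list. Differences between these libraries may in part be technical. The lowest p among the mitochondrial genes was 0.143 in the exact test, with an adjusted p of 1, and was shared by Atp5g1, Cox14 and Ndufaf8. No mitochondrial gene was called in all 3 wild-type libraries and at most 1 knockout library, a pattern of 0.187% of all genes. The reverse, 0 of 3 wild-type and at least 3 of 4 knockout libraries, was met by 2 mitochondrial genes (1.09%), Cox14 and Ndufaf8, and by 0.251% of all genes.

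Cox14 (chromosome 15, 99725618 to 99728136, plus strand), a factor that accompanies a newly made core subunit of complex IV, had peaks in knockout 1, 3 and 4 with folds of 4.63, 4.23 and 6.56. Ndufaf8 (chromosome 11, 120098934 to 120100424, plus strand) had peaks in knockout 2, 3 and 4 with folds of 4.31, 3.90 and 4.82. Neither was called in a wild-type library. Most of these peaks were of middling or low rank in their lists, at percentiles of −log10 q of 47.3, 31.5 and 93.7 for Cox14 and 30.4, 43.4 and 61.2 for Ndufaf8. With every list shortened to 3366 peaks, 2 of the 3 calls at Cox14 and 1 of the 3 at Ndufaf8 remained. Both intervals also border another gene, Gpd1 for Cox14 and Tepsin for Ndufaf8. Their promoters follow as the sequences of the genes called in knockout libraries alone in this way, with the same motifs in capitals, at chr15:99725368-99725667 and chr11:120098684-120098983, both on the plus strand.
Cox14: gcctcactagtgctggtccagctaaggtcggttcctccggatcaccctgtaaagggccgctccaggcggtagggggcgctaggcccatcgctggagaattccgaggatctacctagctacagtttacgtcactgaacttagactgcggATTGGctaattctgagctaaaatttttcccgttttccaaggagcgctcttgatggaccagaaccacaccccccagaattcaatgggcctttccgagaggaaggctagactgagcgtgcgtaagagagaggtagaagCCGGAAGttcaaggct
Ndufaf8: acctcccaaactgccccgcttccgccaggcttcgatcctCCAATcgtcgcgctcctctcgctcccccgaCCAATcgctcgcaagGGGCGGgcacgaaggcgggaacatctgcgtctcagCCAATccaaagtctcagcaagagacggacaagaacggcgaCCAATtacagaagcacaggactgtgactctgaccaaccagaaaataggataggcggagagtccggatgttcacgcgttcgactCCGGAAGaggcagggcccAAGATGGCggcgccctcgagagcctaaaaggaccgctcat

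The Cox14 window has a CCAAT match at −102 and an ETS match at +34. That of Ndufaf8 has 4 CCAAT matches, at −211, −181, −131 and −91, an SP1/KLF match at −166, an ETS match at −8 and a YY1 match at +10. Its 27 CpG dinucleotides exceed the 15 of Cox14. The 59 bp that the Ndufaf8 peaks had in common, chr11:120098813-120098871, and the 55 bp common to the Cox14 peaks, chr15:99725473-99725527, both lie inside the printed windows.

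**Figure D5:**
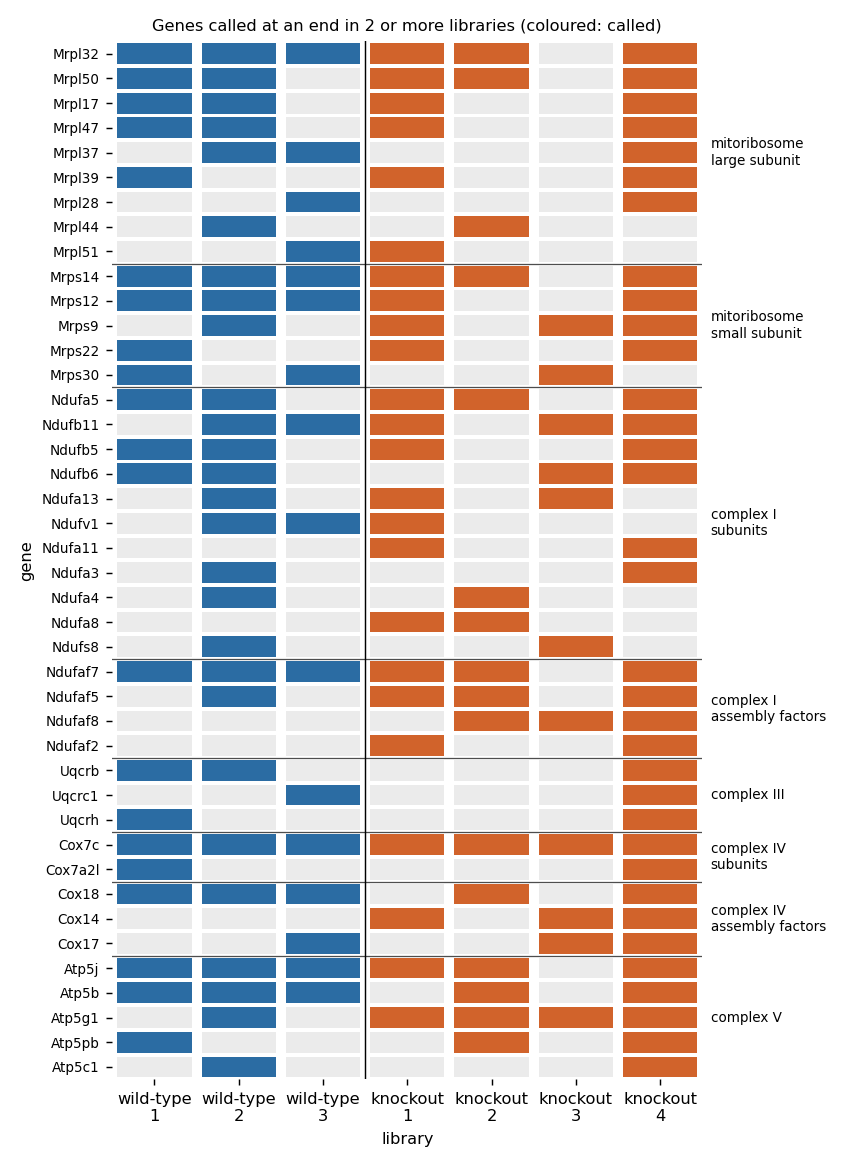
Calls of the 42 mitochondrial genes called in 2 or more libraries, 1 row per gene grouped by complex and 1 column per library, where a coloured cell is a peak within 1 kb of a span end (wild-type blue, knockout orange) and a grey cell is none. Cox7c is the one row with colour in all 7 columns, the knockout 4 column is the fullest, and no complex II gene appears.

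Where a gene was called in several libraries, the peaks fell in the same place. Of the 42 genes called in at least 2 libraries, 40 had at least 1 base covered in every calling library, the exceptions being Ndufa13 and Mrpl39, and this held for 18 of the 18 genes called in at least 4. Strand was known for 167 of the 185 pairs of a peak and a gene, and in 163 of these the nearer end was the transcription start. Per library 97.1% ± 3.66 of the called mitochondrial genes (SD, n = 7) were called at the start, and 95.2% ± 0.849 of all called genes (SD, n = 7). For these 163 the median peak centre lay at −75 bp from the start, on the upstream side, with quartiles of −124 and −34.25 bp. The start itself was covered by 97 peaks (59.5%), and 152 lay within 250 bp of it.

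The mitochondrial genes also differed from other genes in their surroundings. Another protein-coding gene ends within 1 kb of 102 of the 183 (55.7%), against 24.8% of all genes, and 11 of the 18 genes called in at least 4 libraries share their peak with such a neighbour. Among genes with a close neighbour, a library called on average 17.1% of the mitochondrial genes and 12.6% of all genes. Among genes without one, it called 11.1% and 7.53%. When peaks that also lie at the end of a gene outside the 183 were left out, 37 mitochondrial genes still had a call. In at least 4 libraries 9 were called (4.92%). By the stricter rule of peaks at the ends of 1 gene only, 4.71% of all genes were. Among the 9 were Mrpl47 and Ndufb5, whose common peak stayed in since both belong to the 183. The rule used for all genes leaves that peak out, so 4.92% and 4.71% are not comparable and show no excess. Counting only peaks at the ends of 1 gene, for the mitochondrial genes and all genes alike, the ratio of their shares fell to 0.947. Of the 9 genes, Cox7c kept all 7 calls, Mrps14 kept 6, and Atp5b, Atp5g1 and Cox18 kept 5. The part of close neighbours in the higher share of the mitochondrial genes was not tested.

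Their spans are short, with a median of 7.495 kb against 17.17 kb for all genes, and fewer of them held a peak inside the span. Such an inner peak was present in 1.09 to 8.20% of the mitochondrial genes per library and in 4.06 to 14.7% of all genes. Among all genes, those called in 4 to 7 libraries had longer spans than those called in none, 27.223 against 15.1475 kb, whereas the mitochondrial genes called in 4 to 7 libraries and in none had medians of 8.237 and 7.588 kb.

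Promoter sequences were matched for 154 of the 183 genes, giving 166 promoters, and for 17491 of all genes, giving 21262. The mitochondrial promoters were rich in CpG, with a median of 21 CpG dinucleotides in 300 bases against 13 for all promoters, and in motifs of nuclear respiratory control. The NRF1 motif was present in 10.2% of them and in 2.35% of all promoters, the ETS motif in 30.7% and 11.6%, and the YY1 motif in 15.1% and 3.05%. SP1/KLF matches stood at 48.8% and 46.2%, and CCAAT matches at 41.0% and 38.2%. Among promoters with at least 12 CpG, 152 mitochondrial and 11230 in all, the shares were 11.2% and 4.19% for NRF1, 32.2% and 19.1% for ETS, 15.8% and 4.56% for YY1, 50% and 74.6% for SP1/KLF, and 39.5% and 36.4% for CCAAT. These are descriptions of the sequences and involve no peak.

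The groups differed in which motif they carried. ETS matches were found in 6 of 8 promoters of complex IV assembly factors and in 11 of 27 of the small mitoribosomal subunit, but in 4 of 37 of complex I subunits. NRF1 matches were found in 6 of 48 promoters of the large subunit, 3 of 18 of complex V, 2 of 5 of complex III and 2 of 7 of complex I assembly factors. YY1 matches were found in 6 of 27 of the small subunit, 7 of 37 of complex I subunits and 2 of 8 of complex IV assembly factors. The smaller groups hold few promoters, and differences between groups were not tested. Among the mitochondrial genes calling did not follow the motifs in one direction. The ETS motif was in 21.1% of the promoters of mitochondrial genes called in 4 to 7 libraries, 28.6% of those called in 1 to 3 and 34.1% of those called in none. For NRF1 the shares were 15.8%, 14.3% and 6.59%, and for CCAAT 36.8%, 55.4% and 33.0%, over 19, 56 and 91 promoters. For YY1 they were 15.8%, 10.7% and 17.6%, and for SP1/KLF 57.9%, 44.6% and 49.5%. Over all genes, in the same order, the shares were 19.7%, 18.6% and 9.18% for ETS and 3.38%, 4.29% and 1.81% for NRF1. For CCAAT they were 60.1%, 44.8% and 34.7%, for YY1 3.87%, 4.61% and 2.61%, and for SP1/KLF 60.6%, 62.6% and 41.1%.

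Calling was most frequent at promoters of intermediate CpG content. With 12 to 23 CpG in 300 bases, 20.7% ± 8.77 of 85 mitochondrial genes were called per library (SD, n = 7), against 15.2% ± 7.63 of all genes in that class. With 24 or more, 9.77% ± 7.97 of 57 mitochondrial genes were called, against 11.9% ± 7.03 of all genes. With 11 or fewer the values were 5.95% ± 7.93 of 12 genes and 3.70% ± 1.87. The mitochondrial genes thus lay above all genes in the lower classes and below them in the highest. Each difference was less than the SD of the mitochondrial genes over libraries. That SD also holds the spread in list length, which moves both shares, so it does not measure the spread of the difference. Differences within each library were not computed by class. Of the 17 mitochondrial genes with a known promoter that were called in at least 4 libraries, 14 fell in the middle class. Over all genes, 552 of the 1191 such genes did. Of the mitochondrial genes with a promoter, called or not, 55.2% were in that class, against 26.4% of all genes.

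Genes of neighbouring mitochondrial processes were called at various rates. None of these lists has a gene that passed the adjusted Fisher exact test in either direction, and with 3 libraries against 4 none could have. Mitochondrial aminoacyl-tRNA synthetases, which load the tRNAs for the mitoribosome, averaged 23.6% per library with 10 of 20 genes called. Among them Lars2 was called in all 7 libraries and Sars2, at the peak shared with Mrps12, in 5. Gatb, a subunit of an amidotransferase that finishes one of these tRNAs and is kept in this list, was also called in 5. Assembly factors without an Nduf or Cox symbol averaged 17.2% with 18 of 34 called, among them Pet100 of complex IV in 7 libraries and Tmem126b of complex I in 5. Mitochondrial transcription and RNA genes averaged 17.9% with 8 of 16 called, including the RNase Z gene Elac2 in 6 libraries and Tfb1m and Tfb2m in 4 each.

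Regulators of respiratory genes averaged 18.2% with 4 of 11 called, Gabpa in 6 libraries, Sp1 in 5, Pprc1 in 2 and Esrra in 1. Nrf1, Yy1 and Ppargc1a had no call. The 6 libraries that called Gabpa did so at the peaks shared with Atp5j. Genes of the tricarboxylic acid cycle averaged 15.3% with 5 of 14 called, and the fumarase gene Fh1 was called in all 7 libraries. Parts and biogenesis factors of the mitoribosome without an Mrp symbol averaged 9.02% with 7 of 19 called, Mpv17l2 in 4 libraries, and mitochondrial translation factors 5.95% with 3 of 12 called. Of the 3 genes listed beside complex III, Cyc1 and Cycs were each called in 1 knockout library. The mean over libraries was 14.4% for the 183 genes and 8.80% for all protein-coding genes, so the synthetases lay above both and the translation factors below both.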

How the data were processed

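ATAC-seq libraries of 3 wild-type and 4 L3mbtl3 -/- samples were prepared from genomic DNA by a Nextera protocol, per the labels. Build GRCm38, the aligner Bowtie2 2.3.5.1, the peak caller MACS2, deepTools 3.3.0, SAMtools 1.9, FastQC 0.11.8 and CASAVA 1.9 come from the submitters' processing notes. How each was set, which MACS2 was used and whether read ends were moved for the transposase is not given in the sources used here. Per library the authors deposited 1 broad peak list, so peaks were called in each library on its own. Each deposited peak carries a score, which was not used, a fold enrichment (a ratio over the caller's background) and a −log10 p and −log10 q. The smallest deposited −log10 q was 1.30 to 1.32 in the 7 lists. Fold and q are ranked within a list only. The lists hold no read counts, so depth is unknown and no counting interval is given.

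Gene spans came from a RefSeq table of GRCm38.p6, and strand, starts and promoters from a RefSeq promoter table of the same build. Coordinates count from 1. A gene was called in a library with a peak within 1 kb of either span end, and a peak near several genes counted for each. Calls per gene were compared with a two-sided Fisher exact test over 21883 genes, adjusted by the Benjamini-Hochberg method. Shares are given as means ± SD over libraries, with no test. Replicate numbers shared by the genotypes did not pair the samples. Over 4919 genes with unequal calls, the correlations of deviations between same-numbered libraries were −0.00550, 0.0800 and 0.0610, and the labels tie no number to a litter or day. Scripts used Python 3.11.15, pandas 2.3.3, NumPy 2.4.6 and SciPy 1.17.1, and were tested on simulated data.

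The genes and lists were chosen with earlier results of these data known. The rule for named genes takes those called in 6 or 7 libraries, those called in 3 of 3 wild-type and at most 1 of 4 knockout libraries or the reverse, up to 3 per group with the most calls, the isoform pairs and the leading genes of each further list. Others were named after their values were seen. Alternatives were windows of 500 bp and 2.5 kb, annotated starts only, −log10 q of at least 5, lists cut to the strongest 3366 peaks, shared peaks left out, structural subunits only, autosomes only, each library left out in turn, and replicate numbers as pairs.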

Additional observations from a re-analysis of the deposited data

Results flagged for a closer look

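Among the 4 knockout libraries, 3 of 16 values examined had 1 library far from the rest, by Dixon's gap relative to the range at the 95% level. For continuous, normally distributed values chance alone gives such a gap in about 1 in 20 groups. Complex III genes were called at 75% in knockout 4 and at 0 in the other 3 knockout libraries. Complex IV subunits were called at 22.2% in knockout 4 and at 5.56% in each of the others. In both groups the other 3 libraries are tied, so any differing value in knockout 4 would be flagged. The rate of 1 in 20 does not apply to these 2 flags. The peak at Atp5g1 was 407 bp wide in knockout 4 and 161 to 195 bp in the others, and wild-type 2, the single wild-type library with a call there, had a width of 454 bp. All 3 values come from the library with the longest peak list, whose part in them was not tested.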

How the results depend on the processing

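In 15 settings the ratio of the share of mitochondrial genes called to that of all genes ran from 0.947 to 2.0 and was above 1 in 14. It was 1.48 with a window of 2.5 kb, 2.0 with −log10 q of at least 5, 1.52 with equal lists, 1.52 with structural subunits only and 0.947 with peaks at the ends of 1 gene only. At −log10 q of at least 5, 15 genes were called at least once and 2 in at least 4 libraries, Cox7c and Ndufaf7. These 2 are 1.09%, against 0.594% of all genes. With equal lists the counts were 32 and 6, the 6 being 3.28%, against 2.56% of all genes. Without peaks shared with a gene outside the 183 they were 37 and 9. The 9 are 4.92%, and 4.71% of all genes were called by peaks at the ends of 1 gene only. The 9 include Mrpl47 and Ndufb5, whose common peak the rule for all genes leaves out, so these shares are not comparable. The share of all genes called at least once was not computed in these settings, nor with a library left out. Group means fell to 1.46% (large subunit), 1.48% (small subunit), 1.05% (complex I subunits), 8.93% (complex I assembly factors), 4.76% (complex IV assembly factors) and 2.52% (complex V) at −log10 q of at least 5. They were 3.21%, 5.91%, 5.57% and 8.40% for the large subunit, small subunit, complex I subunits and complex V with equal lists. Without shared peaks complex I subunits stood at 4.88% and complex I assembly factors at 0. With annotated starts only, complex IV subunits stood at 17.6% and complex IV assembly factors at 6.12%, over the genes with a known start. Stricter lists hold fewer peaks by construction, and for the other changes the cause was not tested. Leaving out each library in turn gave a ratio of 1.62 to 1.66, 12 to 18 genes in at least 4 libraries and 55 to 78 in at least 1. The 12 to 18 genes are 6.56 to 9.84%, against 4.72 to 6.15% of all genes. The genotype difference ran from −4.01 to 4.37 points. The difference was −0.410 points with equal lists. With the replicate block, replicate numbers 1 to 3 as pairs and knockout 4 left out, it was −4.01 points, from pairs of 1.09, −7.65 and −5.46. The adjusted Fisher exact test gave 0 genes in every setting run, and 0 to 11 at an unadjusted p under 0.05. With 3 libraries against 4 no gene could have passed the adjustment. With a library left out the exact test cannot go under an unadjusted 0.05 either. These counts of 0 were therefore fixed by the number of libraries and say nothing about the genotypes. Depth is unknown, so closed chromatin and too few reads cannot be told apart at an uncalled gene.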
